A study of Mus musculus with 2 samples.

Results

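The genes described here encode aminoacyl-tRNA synthetases, 19 of the cytosol and 16 of the mitochondrion. They were taken by gene name from a list of 35 symbols, all of which were found among the 43346 Ensembl genes of the tables. A symbol ending in a numeral marked the mitochondrial enzyme. The members were chosen by name with their measured TPM and counts in these libraries already known, the very high level of Lars2 among them, so the levels below are a description and carry no test.

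The study measured total RNA in CFU-Ery, the erythroid progenitor that forms small red-cell colonies, as primary cells from adult male C57BL/6J mice of 5 to 6 weeks. The name of the isolation protocol gives bone marrow as the source. There was 1 group of 2 libraries, labelled as biological replicates 1 and 2 and called replicate 1 and replicate 2 here. Each had 1 ng of starting RNA, added spike-in RNA and fragments of 150 to 400 nt. Both libraries carry the same donor record but separate biosamples, so the spread between them may be technical, and no genotype, treatment or second cell type was there to compare.

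Each aminoacyl-tRNA synthetase joins an amino acid to the tRNAs that read its codons, and thereby sets the meaning of the genetic code. Animal cells keep separate nuclear genes for most enzymes of the cytosol and of the mitochondrion, while a few genes serve both compartments. Several cytosolic enzymes sit together on scaffold proteins in the multisynthetase complex. Erythroid progenitors draw on both sets, the cytosolic one for globin and the mitochondrial one for the respiratory chain subunits encoded in mitochondrial DNA.

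The tables held 143491647 expected counts in replicate 1 and 110634458 in replicate 2, of which the mitochondrial rRNA genes mt-Rnr1 and mt-Rnr2 took 81.2% and 79.0%. Nuclear protein-coding genes were left with 4717790 and 4093202 counts, or 3.29% and 3.70%, so that 1 TPM (a length-scaled share of all transcripts in the table) corresponds to 43.1 and 37.0 TPM after rescaling on nuclear protein-coding genes alone. All 6 erythroid markers reached 1 TPM in both libraries, with summed levels of 2487 and 2852 TPM. The globin gene Hbb-bs alone gave 2287 and 2623 TPM of these sums. All 6 granulocyte and monocyte markers reached 1 TPM in both libraries too, with summed levels of 511 and 693 TPM. Their median was 62.5 and 81.0 TPM, above the erythroid median of 32.4 and 34.3 TPM. The minimum was also reached by 3 of 4 macrophage markers (8.43 and 11.3 TPM summed) and 3 of 3 B lymphoid markers (14.6 and 16.6 TPM summed). None of the defining markers was at 0, and the part of the other cell types in the synthetase levels was not tested. In such bulk RNA, fewer cells of a type and less RNA per cell cannot be told apart.

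The 35 synthetase genes took 1.09% of the nuclear protein-coding counts in replicate 1 and 1.01% in replicate 2. A single gene, Lars2, held 86.2% and 85.8% of those counts. The other 34 genes together had 7141 and 5886 counts, and made up 0.112% and 0.107% of the nuclear protein-coding TPM. Apart from Lars2, the members lay between 0.01 TPM (Ears2) and 4.25 TPM (Vars) as the mean of both libraries. After rescaling, these means were 0.370 and 169 TPM.

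**Figure D1:**
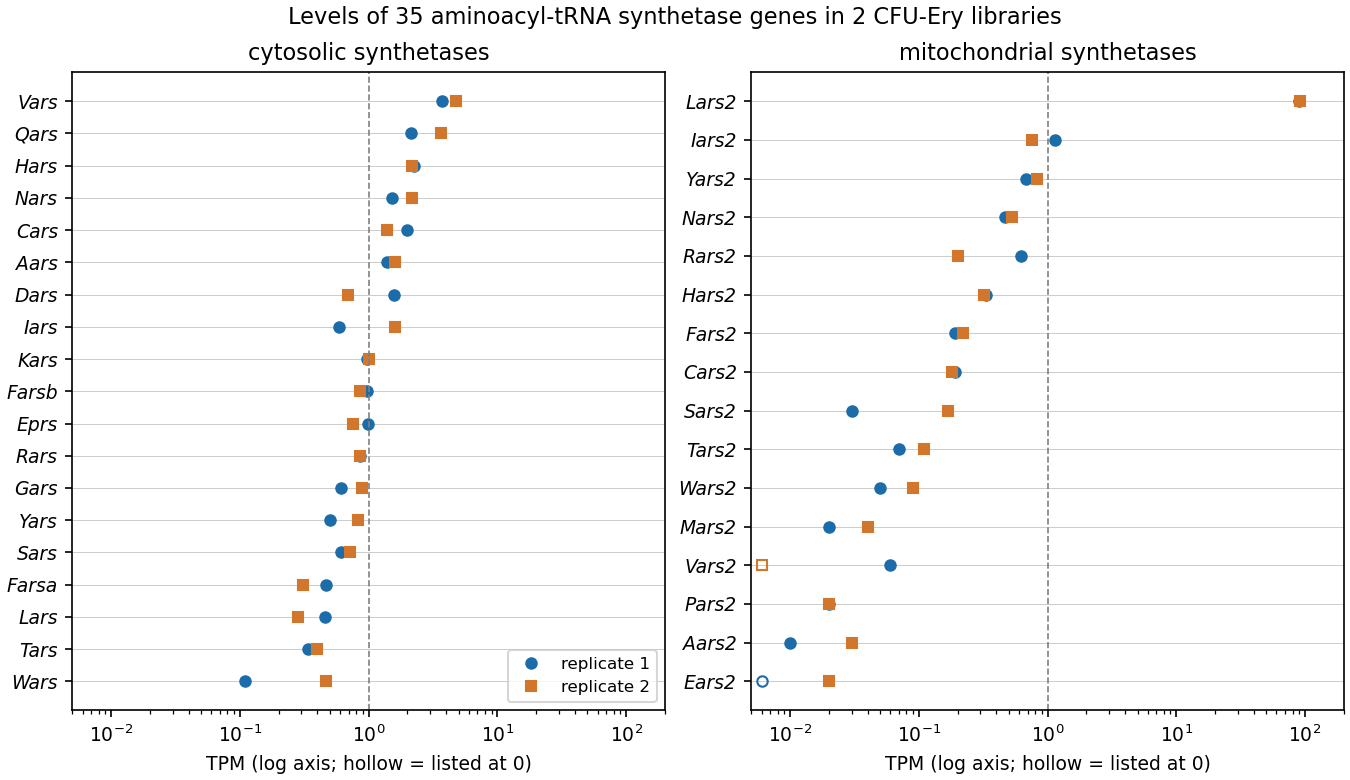
TPM (log axis) of the 19 cytosolic and 16 mitochondrial synthetase genes, ordered by mean; circles are replicate 1, squares are replicate 2, hollow symbols are values listed at 0, and the dashed line is 1 TPM. Lars2 stands at 89.7 and 91.7 TPM, far to the right of Vars at 3.71 and 4.79 TPM.

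With a minimum of 1 TPM in both libraries, 6 of the 19 cytosolic genes were detected (Vars, Qars, Hars, Nars, Cars and Aars) and 1 of the 16 mitochondrial genes (Lars2), where 12.6% of the 21461 nuclear protein-coding genes passed the same rule. At 1 rescaled TPM, 19 of 19 cytosolic and 11 of 16 mitochondrial genes passed, where 44.6% of nuclear protein-coding genes did. The median cytosolic gene had 0.97 and 0.86 TPM, a mean of 0.915 ± 0.0778 (SD, n = 2). The median mitochondrial gene had 0.13 and 0.175 TPM, a mean of 0.153 ± 0.0318 (SD, n = 2). Both libraries therefore placed the cytosolic median above the mitochondrial one. For scale, the median of the 10679 such genes counted in both libraries was 0.39 and 0.43 TPM, below the cytosolic median and above the mitochondrial one in both libraries.

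Lars2, the mitochondrial leucyl-tRNA synthetase (ENSMUSG00000035202.7), lies on the plus strand at chr9:123366927-123462666 of GRCm38. It had 89.71 TPM in replicate 1 and 91.72 TPM in replicate 2, from 44426 and 35479 counts. The mean was 90.7 ± 1.42 TPM (SD, n = 2), or 3632 ± 337 rescaled TPM, and Lars2 ranked 15 and 16 among all nuclear protein-coding genes. The next member was Vars in both libraries, which Lars2 exceeded 24.2-fold and 19.1-fold in TPM. It exceeded the next mitochondrial gene 78.0-fold in replicate 1, where that was Iars2, and 110.5-fold in replicate 2, where it was Yars2. Of the 0.83 TPM of Yars2 in replicate 2, 0.51 TPM lay on a transcript of 377 nt with 12.6 counts. Lars2 also stood 3.46-fold and 3.17-fold above the sum of all the other 34 members. The replicates thus lay close together, and the gap to the other members was many times the difference between them.

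The deposited annotation gives Lars2 1 transcript of 3881 nt, which carried 100% of the gene's TPM in both libraries. Its counts were whole numbers in both libraries (tolerance 0.005). In the later GENCODE M21 the matching transcript has 3894 nt in 21 exons, with the coding sequence at bases 200 to 2905 and a 3′ UTR of 989 nt. The 3′ UTR shares runs of 25 bases with AA474408 (44 runs, between bases 3172 and 3313) and with Gm15564 (28 runs, between bases 3278 and 3329). Those genes had only 10 and 17 counts, and 0 and 1 counts. No run of 25 bases was shared with the rRNA-related genes mt-Rnr1, mt-Rnr2, Gm42418 or Gm26917. None was found under the symbol AY036118 either. That gene was not among the measured ones, and whether its sequence was present was not checked. The sequence of the large-subunit ribosomal RNA of the cytosol was not at hand. Whether the 3′ UTR shares longer stretches with it was therefore not tested.

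The same 3′ UTR holds short strings that belong to the conserved core of large-subunit ribosomal RNA, and they are shown because no other listed synthetase held either of them. TACGAGAGG is part of the sarcin-ricin loop, where elongation factors bind the ribosome, and AGGGATAAC is part of the peptidyl transferase region. The stretches around them are given here as RNA-sense DNA, with the string itself in capitals.
Lars2 3′ UTR at base 3401, chr9:123462161-123462189, plus strand: tcctgctcagTACGAGAGGaaccgcagct
Lars2 3′ UTR at base 3190, chr9:123461950-123461978, plus strand: aagttaccacAGGGATAACtggcttgtgg
Of 55450 genes with a GENCODE M21 transcript, 148 (0.267%) held TACGAGAGG and 232 (0.418%) held AGGGATAAC on the sense strand, and 56 and 279 held them on the antisense strand. Both strings in 1 transcript were found in Lars2, 211 nt apart, and in Kat6a, 5228 nt apart, and in no other gene. The match is a description of letters only. The tables give no read positions along a transcript, so where in Lars2 its reads lay was not tested.

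**Figure D2:**
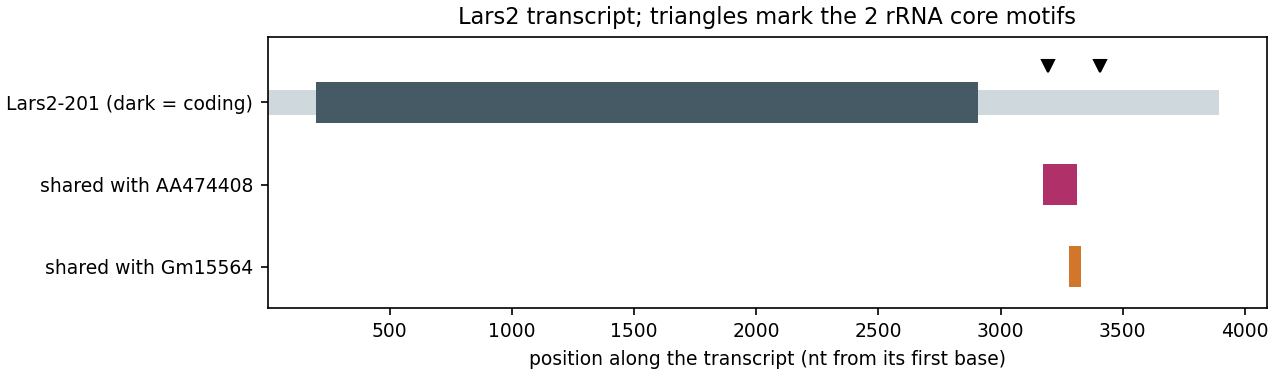
Map of the Lars2 transcript in nt from its first base, with the coding sequence dark and the UTRs pale. Triangles mark the rRNA core strings at bases 3190 and 3401, and the lower bars mark the stretches shared with AA474408 (3172 to 3313) and Gm15564 (3278 to 3329), all within the 3′ UTR that begins after base 2905.

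Among cytosolic enzymes outside the multisynthetase complex, Vars, the valyl-tRNA synthetase (chr17:35000987-35016322, plus strand), was the most abundant, with 3.71 and 4.79 TPM. Hars, the histidyl enzyme, had 2.26 and 2.16 TPM. Nars, the asparaginyl enzyme, had 1.51 and 2.19 TPM. The level of Vars lay above those of Hars and Nars in both libraries, while the values of Hars and Nars overlapped. Cars, the cysteinyl enzyme, had 1.99 and 1.40 TPM, and Aars, the alanyl enzyme (chr8:111033144-111057664, plus strand), had 1.38 and 1.61 TPM. These ranges overlapped with each other and with that of Nars. Aars drew the most reads of all the cytosolic members, with 945 and 831 counts, but over model lengths of 5307 and 5122 nt, and it ranked 6 in the cytosolic set by TPM.

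At the lower end of the cytosolic set, Wars, the tryptophanyl enzyme, had 0.11 and 0.47 TPM from 39 and 68 counts. Tars, the threonyl enzyme, had 0.34 and 0.40 TPM, and Lars, the cytosolic leucyl enzyme, had 0.46 and 0.28 TPM. These ranges overlapped, so the order of these genes was not resolved. Farsb and Farsa encode the subunits of the cytosolic phenylalanyl enzyme, a tetramer with equal numbers of each. Farsb had 0.97 and 0.86 TPM and Farsa 0.47 and 0.31 TPM, so Farsb was higher in both libraries. The other free enzymes, Gars, Yars and Sars for glycine, tyrosine and serine, lay between 0.50 and 0.88 TPM in either library.

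Of the 7 listed synthetases of the multisynthetase complex, Qars, the glutaminyl enzyme (chr9:108507706-108515941, plus strand), had the highest TPM, with 2.14 and 3.63. Dars, the aspartyl enzyme, had 1.58 and 0.69 TPM, and Iars, the isoleucyl enzyme, had 0.59 and 1.59 TPM. Dars and Iars thus changed order between the libraries. Kars, Eprs and Rars for lysine, for glutamate with proline, and for arginine lay between 0.75 and 1.01 TPM, and Lars was the lowest. The median of the complex enzymes was 0.910 ± 0.0849 TPM and that of the 12 other cytosolic enzymes 0.830 ± 0.0566 TPM (SD, n = 2), with the complex enzymes higher in replicate 1 (0.97 and 0.79 TPM) and lower in replicate 2 (0.85 and 0.87 TPM). Of the scaffolds, Aimp2 had 0.81 and 0.51 TPM, Eef1e1 0.38 and 0.89 TPM, and Aimp1 0.74 and 0.41 TPM, within the range of the enzymes they hold. None of these scaffolds reached 1 TPM in both libraries, where 12.6% of all nuclear protein-coding genes did.

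Synthetases fall into class I and class II by the fold of their catalytic domain. Among cytosolic members, the median was 0.923 ± 0.286 TPM for the 8 genes of class I and 0.920 ± 0.0707 TPM for the 10 of class II (SD, n = 2). Eprs, which joins an enzyme of either class in 1 protein, was left out of both. The order of the classes changed between the libraries, with medians of 0.72 TPM for class I and 0.97 TPM for class II in replicate 1, and 1.13 and 0.87 TPM in replicate 2.

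Below Lars2, the mitochondrial set fell off steeply. Iars2, the mitochondrial isoleucyl enzyme (chr1:185284726-185329396, minus strand), had 1.15 and 0.76 TPM from 463 and 279 counts. Yars2, the tyrosyl enzyme, had 0.68 and 0.83 TPM from 77 and 64 counts. Short transcripts of 403 and 377 nt held 0.31 TPM of this in replicate 1 and 0.51 TPM in replicate 2, respectively. Nars2, the asparaginyl enzyme, had 0.47 and 0.53 TPM. Their ranges put Iars2 and Yars2 above Nars2 in both libraries and left the order of Iars2 and Yars2 unresolved. Rars2, the arginyl enzyme, had 0.62 and 0.20 TPM from 58 and 35 counts, and overlapped with Nars2.

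The lowest mitochondrial members were at the edge of detection. Pars2, the prolyl enzyme, had 0.02 TPM in both libraries from 6 and 4 counts. Aars2, the alanyl enzyme, had 0.01 and 0.03 TPM from 4 and 10 counts, and Ears2, the glutamyl enzyme, was listed at 0 and 0.02 TPM from 2 and 6 counts. At such counts the order of these genes cannot be read. Vars2, the valyl enzyme, had 28 counts in replicate 1 and 0 in replicate 2. With the count of 0 set to a floor of 3 counts and scaled by nuclear protein-coding depth, Vars2 was 8.10-fold lower in replicate 2. That value depends on the floor chosen. The exact interval of its count share ratio, replicate 1 over replicate 2, had a lower limit of 2.62 in log2. All 28 counts lay on a retained-intron transcript of 3803 nt. Mars2, the methionyl enzyme, had 33 and 45 counts but 0.02 and 0.04 TPM, since its annotated transcript is 11294 nt long. Hars2, Fars2, Cars2, Sars2, Tars2 and Wars2, for histidine, phenylalanine, cysteine, serine, threonine and tryptophan, lay between 0.03 and 0.33 TPM. In total, 6 mitochondrial members (Sars2, Wars2, Vars2, Aars2, Pars2 and Ears2) had fewer than 20 counts on average, and no cytosolic member did. Of all 21461 nuclear protein-coding genes, 9078 had at least 20 counts on average.

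For 16 pairs of a cytosolic and a mitochondrial enzyme of the same amino acid, the cytosolic gene had the higher TPM in both libraries in 13 pairs. Fars2 is paired with both Farsa and Farsb, and Eprs with both Ears2 and Pars2. These pairs are all among the 13, so the 13 are not all separate comparisons. The median log2 ratio of cytosolic over mitochondrial TPM was 2.28 in replicate 1 and 2.06 in replicate 2. It leaves out the pair of Eprs and Ears2 in replicate 1 and that of Vars and Vars2 in replicate 2. In these the mitochondrial gene was listed at 0 TPM. The histidine pair had nearly the same ratio in both libraries, with Hars 6.85-fold and 6.75-fold above Hars2. The arginine pair stood at 1.37-fold in replicate 1 and at 4.25-fold in replicate 2. The serine pair ran from 20.3-fold to 4.18-fold, with only 6 and 31 counts in Sars2. Values are deposited to 0.01 TPM, so ratios over the lowest genes carry a large rounding error.

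The remaining ratios of this kind were 138-fold and 53.7-fold for alanine, 10.5-fold and 7.78-fold for cysteine, and 3.21-fold and 4.13-fold for asparagine. For threonine they were 4.86-fold and 3.64-fold, and for tryptophan 2.20-fold and 5.22-fold. For proline, Eprs exceeded Pars2 49.5-fold and 37.5-fold, and for glutamate it exceeded Ears2 37.5-fold in replicate 2, with Ears2 listed at 0 in replicate 1. Vars exceeded Vars2 61.8-fold in replicate 1, and Vars2 was listed at 0 in replicate 2. For phenylalanine, Farsa stood 2.47-fold and 1.41-fold above Fars2, and Farsb 5.11-fold and 3.91-fold. All these pairs had the same direction in both libraries, while the size of the ratio moved between the libraries.

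Only the leucine pair had the mitochondrial gene higher in both libraries, with Lars2 195-fold and 328-fold above Lars. The isoleucine pair changed direction in gene TPM, with Iars2 1.95-fold above Iars in replicate 1 and Iars 2.09-fold above Iars2 in replicate 2. Counts changed direction too, with 302.98 and 319 for Iars and 462.58 and 278.98 for Iars2. A transcript of Iars2 of 1866 nt, not annotated as protein-coding, had 0.71 and 0.38 TPM. Its coding transcript of 5471 nt had 0.40 and 0.38 TPM. Full-length coding transcripts of Iars were higher in both libraries, with 0.53 TPM in replicate 1 and 0.64 TPM in replicate 2. For tyrosine, Yars2 was 1.36-fold above Yars in replicate 1, and both had 0.83 TPM in replicate 2. Yars2 had 0.31 TPM on a transcript of 403 nt in replicate 1 and 0.51 TPM on one of 377 nt in replicate 2. In counts Yars was higher in both libraries, with 129 and 170 against 77 and 64 for Yars2. For isoleucine and tyrosine, the difference in gene TPM did not exceed the spread between the replicates.

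**Figure D3:**
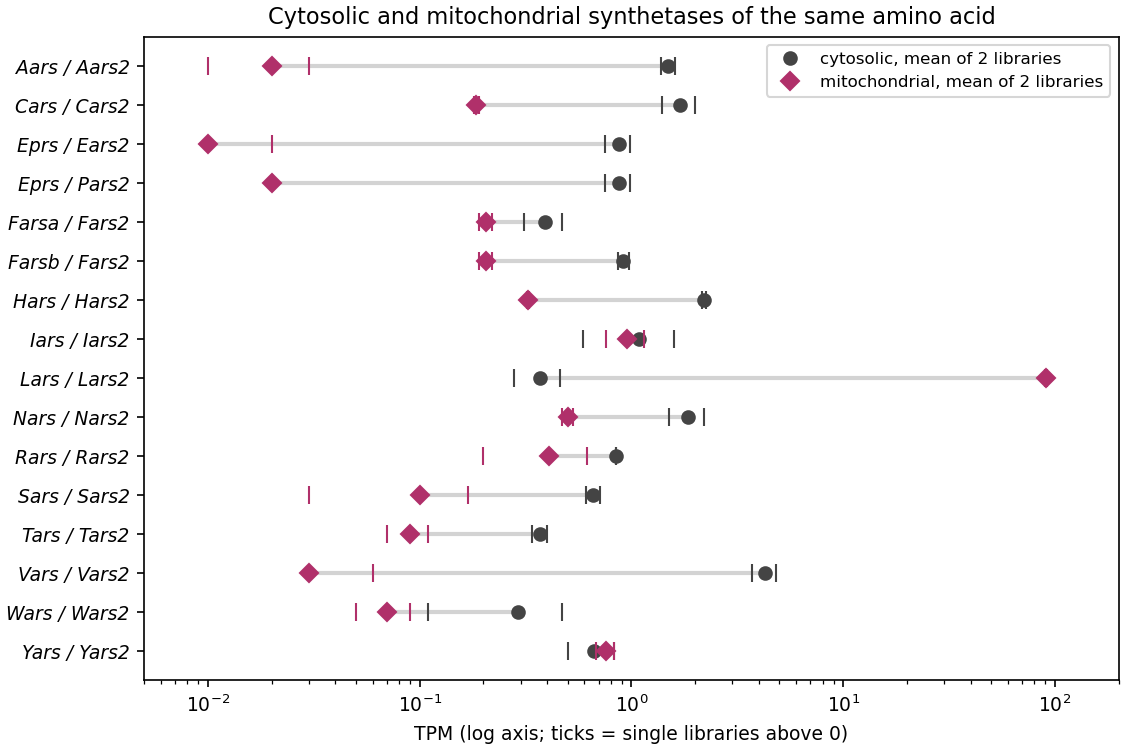
TPM (log axis) of the cytosolic (circle) and mitochondrial (diamond) synthetase of the same amino acid, with means of 2 libraries as large symbols, each library as a tick, and values of 0 not drawn. In 13 of 16 pairs the cytosolic gene is higher in both libraries, while the leucine pair runs the other way, from 0.28 and 0.46 TPM for Lars to about 90 TPM for Lars2.

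The transcript tables list 177 transcripts of the members, of which 72 are annotated as protein-coding, 68 as retained introns, 18 as targets of nonsense-mediated decay and 18 as processed transcripts without a reading frame. A further 1 was not matched to the later annotation and counts as not protein-coding. Among the 29 members with at least 20 counts on average, the median share of a gene's TPM on protein-coding transcripts was 88.3% in replicate 1 and 100% in replicate 2. For the 21 of them with several transcripts it was 60.0% and 84.9%, against 91.9% and 91.0% for the 6775 nuclear protein-coding genes with several transcripts and as many counts. The synthetase median was lower in both libraries, but it rests on few genes.

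The high TPM of Vars and Qars rested largely on short or intron-retaining transcripts. Only 41.2% and 37.1% of the TPM of Vars lay on protein-coding transcripts, and the longest of these, of 4137 nt, had 0.08 and 0.23 TPM. A retained-intron transcript of 3731 nt took 395.62 and 278.05 of the counts of Vars. Of the TPM of Qars, 6.07% and 2.49% lay on protein-coding transcripts. A retained-intron transcript of Qars of only 462 nt had 0.63 and 1.57 TPM, the largest value of its transcripts. By TPM, both genes were thus assigned mainly to transcripts that are not annotated as protein-coding.

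For other members the assignment moved from 1 transcript to another between the libraries. The whole TPM of Iars on full-length transcripts lay on a form of 4396 nt in replicate 1 (297.22 counts) and on one of 4426 nt in replicate 2 (284.49 counts), and replicate 2 gave a further 0.71 TPM to a coding fragment of 401 nt from 19.21 counts. The model length of Iars was accordingly 3991 nt in replicate 1 and 2080 nt in replicate 2. For Farsa, protein-coding transcripts held 0% of the TPM in replicate 1 and 90% in replicate 2. For Rars2 they held 0% and 100%. Of the 20 members with at least 20 counts, several transcripts and 1 clear leading transcript in each library, 10 had another leading transcript in replicate 2 than in replicate 1, where 32.3% of the 6530 nuclear protein-coding genes of that kind did. These members were Vars, Iars, Farsb, Farsa, Wars, Yars2, Rars2, Hars2, Fars2 and Tars2.

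Between the replicates, gene levels were compared on the log2(TPM + 1) scale, which understates the change of low genes. They were centred on the median of all 9878 genes with at least 20 counts on average. Before centring, a gene under 1 TPM in both libraries cannot be over 2-fold apart on this scale, and most members lay there. Of the 29 members with at least 20 counts on average, 0 were over 2-fold apart, where 0.628% of the 9878 genes were. The scale thus largely set the 0 in advance. On the log2(expected count + 1) scale 2 of 29 were over 2-fold apart, Dars and Wars, where 18.2% of the 9878 genes were. The median distance between the replicates on that scale was 0.28 for the members and 0.39 for all genes. No fit with an error term was used here, since the only contrast is between the libraries of 1 group.

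**Figure D4:**
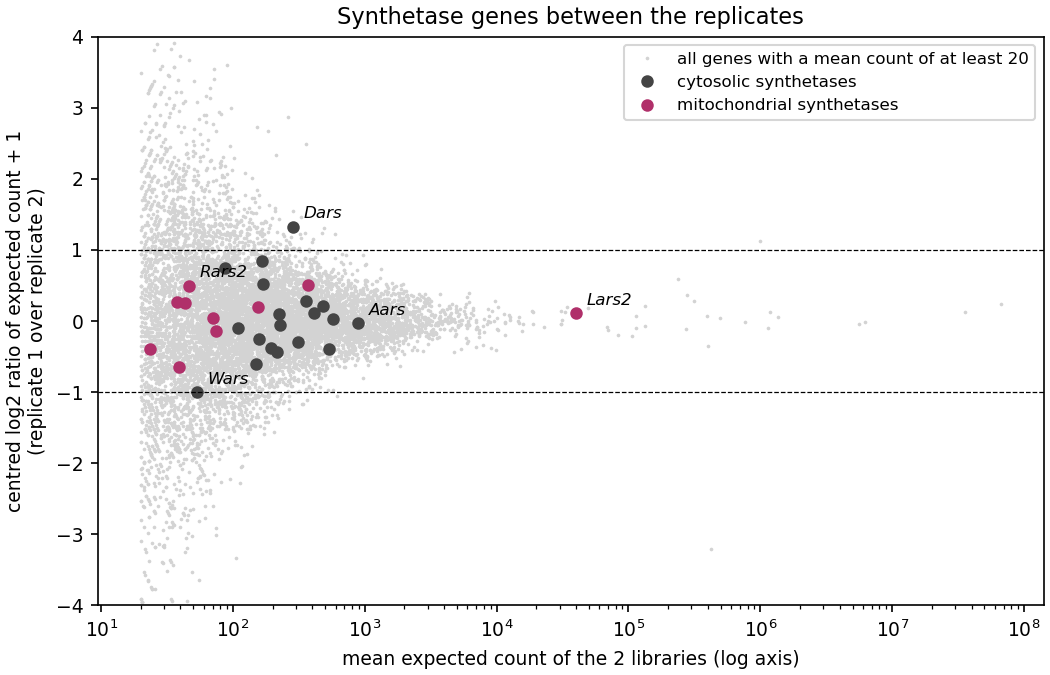
Centred log2 ratio of expected count + 1, replicate 1 over replicate 2, against the mean expected count (log axis); grey points are all genes with at least 20 counts on average, dark points the cytosolic and red points the mitochondrial synthetases, and dashed lines mark 2-fold. Dars lies above the upper line and Wars at the lower one, while Lars2 lies near 0, with 44426 and 35479 counts.

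Dars (chr1:128363707-128417368, minus strand) was the furthest apart in reads of the members with at least 20 counts on average, with 427 counts in replicate 1 and 146 in replicate 2. Its share of nuclear protein-coding counts was 2.54-fold higher in replicate 1, a log2 ratio of 1.34 with an exact 95% interval of 1.07 to 1.62. Its model length was 2175 nt in both libraries, so TPM moved alike. Iars was the other member over 1.5-fold apart on the log2(TPM + 1) scale, in the opposite direction, with a log2 ratio of -0.66 against 0.66 for Dars. Its counts were 302.98 and 319, and its count share was only 1.21-fold higher in replicate 2, while its TPM was 2.69-fold higher. The distance of Iars was thus mostly one of model length and that of Dars one of reads.

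**Figure D5:**
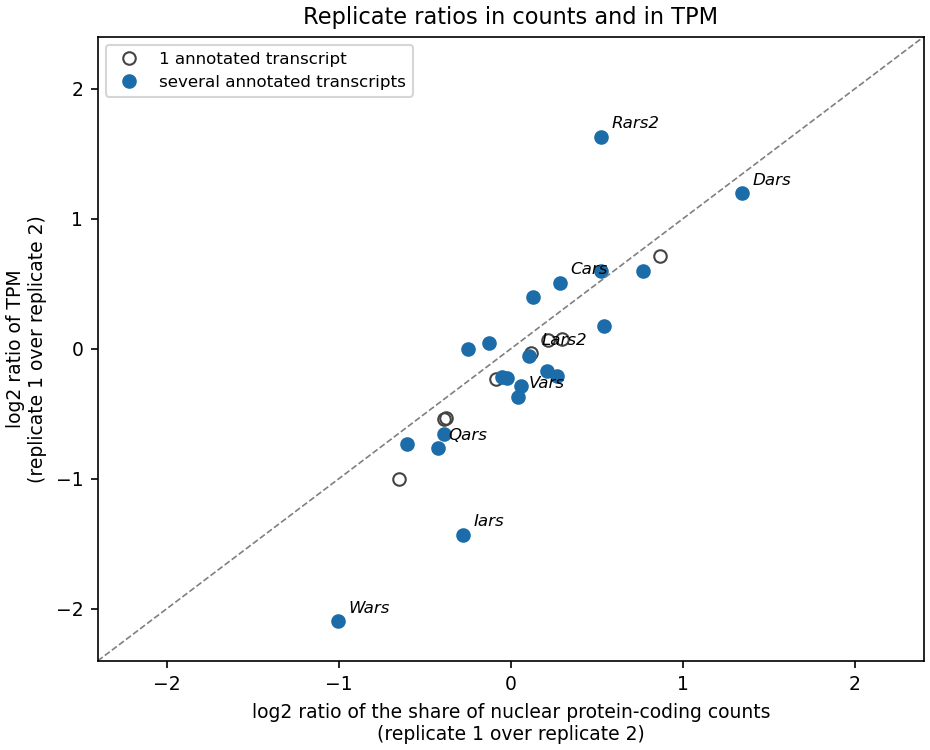
Log2 ratio of TPM against log2 ratio of the share of nuclear protein-coding counts, replicate 1 over replicate 2, for the members with at least 20 counts on average; hollow points have 1 annotated transcript, filled points several, and the dashed line marks equal ratios. Most members with 1 transcript lie just below the dashed line and parallel to it (Mars2, whose TPM is rounded to 0.02 and 0.04, lies further off), while Iars, Wars and Rars2 lie away from it.

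Wars differed in both reads and model length: its TPM was 4.27-fold higher in replicate 2 and its count share was 2.01-fold higher there, with model lengths of 2807 and 1544 nt. The TPM of Rars2 was 3.10-fold higher in replicate 1, and its count share 1.44-fold, with model lengths of 844 and 1868 nt. Model lengths differed by more than 1.5-fold in 6 members (Iars, Wars, Rars2, Wars2, Vars2 and Ears2). Of these, Wars2, Vars2 and Ears2 had fewer than 20 counts on average. The share of all genes with such a difference was not taken, so this count is a description only. The exact 95% interval of the count share ratio left out equality for 14 of the 29 members with at least 20 counts on average, 8 higher in replicate 1 and 6 higher in replicate 2, where it did so for 57.9% of the 9878 genes with as many counts. These intervals cover counting error only, since reads without molecular identifiers are not independent molecules.

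Some members share sequence with a neighbour or a copy, and their values are uncertain to that extent. Iars shares 17.7% of its 25-base runs with Gm4849, and Aars shares 13.9% with Exosc6, whose exons overlap it by 1326 bases on the same strand. Iars2 shares 22.5% with Rab3gap2 on the opposite strand, over 2034 bases. In all, 12 members overlap exons of another gene on the opposite strand, Hars and Hars2 each other among them. How many of all genes do so was not counted. Counts were not whole for Qars, Iars, Iars2 and Cars2 (tolerance 0.005). The use of strand in counting is not stated, so reads of the overlapping genes cannot be told apart.

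Several cytosolic synthetase genes are known targets of ATF4, the transcription factor of the amino acid response, which binds the composite site TGATGNAA as a dimer with a C/EBP protein. RefSeq promoter sequences (GRCm38.p6, 250 bases before to 50 after the start) were given for 26 of the 35 members, and not for Cars, Hars, Hars2, Lars, Nars, Pars2, Rars, Vars and Wars. On either strand, TGATGNAA was found in 5 of 12 cytosolic promoters (41.7%) and in 0 of 14 mitochondrial ones, against 1219 of 27025 genes in the table (4.51%). It was also found in 4 of 12 genes of the amino acid response list (Asns, Atf3, Chac1 and Slc7a11). The stretches that hold it are shown on the gene's own strand because they carry the motif, which stands in capitals and reads TTNCATCA where it lies on the other strand.
Aars, 112 bases before the start, chr8:111033704-111033763, plus strand: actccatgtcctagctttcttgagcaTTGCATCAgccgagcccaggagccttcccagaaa
Gars, 30 bases before the start, chr6:55037945-55038000, plus strand: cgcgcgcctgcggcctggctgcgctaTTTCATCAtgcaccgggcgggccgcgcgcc
Tars, 15 bases before the start, chr15:11399659-11399699, minus strand: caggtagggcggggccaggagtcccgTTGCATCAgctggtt
Iars, just past the start, chr13:49682126-49682155, plus strand: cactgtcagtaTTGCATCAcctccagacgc
Yars, just past the start, chr4:129189895-129189924, plus strand: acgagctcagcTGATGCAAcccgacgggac
Aars held a further match just past its start. The starts are those of RefSeq. By the gene span of GENCODE M21, which begins at chr8:111033144, the first stretch of Aars lies inside the gene. The mean levels of these 5 genes ran from 0.37 TPM for Tars up to Aars with 1.38 and 1.61 TPM, and those of the 7 cytosolic genes without a match ran from 0.39 TPM for Farsa to 2.89 TPM for Qars, so the ranges overlapped. A match is a description of letters, and binding was not measured here.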

How the data were processed

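Total RNA of 2 CFU-Ery libraries was analysed from a gene table and a transcript table of each library, made on mm10 and GENCODE M4 per the description deposited with them. Which aligner and quantifier were run, and whether strand was used, is not given in the sources used here. Per the file headers, the deposited expected counts are estimated reads and can be fractions. The authors' TPM and FPKM values are scaled by length and library, and isoform percent is a transcript's percent of its gene's TPM, per the file headers. TPM is set by all genes in a table, including mitochondrial rRNA, so it was also rescaled to nuclear protein-coding genes. Names and coordinates came from GENCODE M21 (GRCm38), which matched 42462 of 43346 Ensembl genes and left 884 unmatched. Promoters came from RefSeq (GRCm38.p6).

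The members and lists were chosen with earlier results of these data known. All members could be named; the text gives in full the 5 highest and 3 lowest of each compartment, those over 1.5-fold apart, all pairs, and of each other pathway list the 3 highest and the lowest; cell type markers are given by sums and counts. No group comparison was possible, so no p-value is given. Errors are SD over 2 libraries; intervals are exact binomial, at 95%. The rounded expected counts were also scaled with edgeR 4.0.16 (TMM) in R 4.3.3. Other steps used scipy 1.17.1, pandas 2.3.3, numpy 2.4.6 and matplotlib 3.10.9 under Python 3.11.15.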

Additional observations from a re-analysis of the deposited data

How the results depend on the processing

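Of 38 alternatives to the 6 summary results, 23 kept the value within the spread between the replicates, or a count within 1.5 times, and 15 moved it further, and none reversed a direction. The count of cytosolic members detected in both libraries was 6, and became 19 at 1 rescaled TPM, 15 at 0.5 TPM and 0 at 5 TPM. It was 7 to 8 in either library alone. The mitochondrial count was 1, and became 11 at 1 rescaled TPM and 3 at 0.5 TPM, with 1 to 2 in either library alone; Iars2 reached 1 TPM in replicate 1 only. The log2 ratio of the cytosolic to the mitochondrial median was 2.60. It was 3.07 without Lars2, 1.48 without the members under 20 counts, which removes low mitochondrial genes only, and 2.30 to 2.90 with 1 library left out. The share of Lars2 in the mitochondrial TPM was 96.1%, against 95.3% by posterior mean TPM, 97.8% in expected counts, 97.5% on protein-coding transcripts only and 95.8% to 96.3% with 1 library left out. The count of members over 2-fold apart was 0, and 4 with a pseudocount of 0.1, 2 on expected counts and 1 with edgeR's TMM scaling. The median share of TPM on protein-coding transcripts was 94.2%, against 79.8% by posterior mean TPM and 88.3% to 100% with 1 library left out. Where no construction is named, the cause was not tested. A rescaled minimum of 40 TPM and counts per kb of the longest coding transcript were added after seeing the data and kept these results within the same limits. With 3.29% and 3.70% of counts on nuclear protein-coding genes, depth limits the low mitochondrial members most. No paired analysis was possible because there is only 1 group.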

Other observations

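Genes that work beside the mitochondrial synthetases mostly lay under 1 TPM. Of all nuclear protein-coding genes, 12.6% reached that minimum in both libraries. The 12 genes of mitochondrial tRNA maturation and charging had a median of 0.220 ± 0.0283 TPM (SD, n = 2), and 0 of 12 reached 1 TPM in both libraries. Mto1, which modifies the wobble base of mitochondrial tRNAs, had 0.29 and 2.19 TPM, from 80 and 153 counts. Gatc, a subunit of the amidotransferase that makes mitochondrial glutaminyl-tRNA, had 0.83 and 0.91 TPM, while Gatb, its partner subunit, had 0.05 TPM and was listed at 0 in replicate 2. Trnt1, which adds the CCA end to tRNAs, had 0.45 and 0.42 TPM. Of the 7 mitochondrial translation factors, 0 reached 1 TPM in both libraries, and their median was 0.360 ± 0.0566 TPM. For scale, the median of the nuclear protein-coding genes counted in both libraries was 0.410 ± 0.0283 TPM. Mtrf1l, a release factor, had 0.56 and 1.06 TPM, Tufm, the elongation factor Tu, 0.41 and 0.65 TPM, and Tsfm, its exchange factor, 0.30 and 0.40 TPM. The lowest by mean TPM was Mtif2, an initiation factor, with 0.36 and 0.01 TPM from 96 and 3 counts. The 22 mitochondrial tRNA genes, the substrates of these enzymes, had 0 counts in both libraries. They are 59 to 75 nt long, below the fragment range of 150 to 400 nt.

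Of the 14 amino acid response genes, 5 reached 1 TPM in both libraries, where 12.6% of all nuclear protein-coding genes did. Atf4, the transcription factor of that response, had 8.41 and 7.83 TPM. Slc7a5 and Slc3a2, the chains of a transporter of large neutral amino acids such as leucine, had 4.86 and 5.99 TPM and 3.49 and 3.63 TPM. Asns, the asparagine synthetase, had 3.87 and 2.03 TPM, and Ddit3 had 1.71 and 3.40 TPM. The lowest by mean TPM was Slc7a11, a cystine transporter, with 15 and 1 counts. Among 6 genes of editing, selenocysteine charging and related proteins, 0 reached 1 TPM in both libraries, beside the same 12.6%. Tarsl2, a second cytosolic threonyl enzyme, had 0.48 and 0.69 TPM, above Tars in both libraries. Aarsd1, an editing protein for tRNA charged with the wrong amino acid, had 0.05 and 0.57 TPM, Pstk, a kinase of the selenocysteine pathway, 0.20 and 0.33 TPM, and Dtd2, a deacylase, 0.06 and 0.04 TPM.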
